A study of Mus musculus with 12 samples.

Results

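The deletion of the miR-17 binding motif from the Pkd2 3′-UTR was examined in noncystic mouse kidneys, where 6 of the 12 sequenced mice allow a comparison of 3 against 3. RNA was sequenced from the frozen whole kidneys of C57BL/6 mice aged 18 days. Mice 19, 20 and 21 were Pkd2+/+ and mice 22, 23 and 24 were Pkd2Δ17/Δ17, homozygous for the deletion, and the members were taken by these labels. All 6 carried the Pkd1 RC allele, a missense allele of the partner gene, over a floxed Pkd1 allele that stays intact without Cre, a genotype that the study writes both as Pkd1RC/F and as Pkd1RC/+. The controls are thus not wildtype for Pkd1. The other 6 mice were cystic: they carried KspCre, which recombines the floxed Pkd1 allele in tubule epithelium and not in the rest of the kidney, with Pkd2+/+ (mice 25, 26 and 27) or Pkd2Δ17/Δ17 (mice 28, 29 and 30). The Δ17 allele was made by CRISPR editing of eggs, and the number of founders behind these mice is not given in the sources used here. The comparison asks what the deletion does to kidney mRNA where no cysts form.

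Polycystin-2, the product of Pkd2, is a cation channel of the primary cilium and the endoplasmic reticulum that forms a complex with polycystin-1, the product of Pkd1. Loss of either protein from tubule cells gives rise to polycystic kidney disease. MicroRNAs pair through their seed, bases 2 to 8 from the 5′ end, with matching motifs in the 3′-UTR of mRNAs and thereby lower translation and mRNA level. The miR-17 family shares 1 seed, and deleting its motif from a single mRNA removes the pairing there and leaves the microRNA free to act on its other targets. The 6 mature members (RefSeq, build GRCm38.p6) are shown 5′ to 3′ because their common seed, in capitals, defines the motif that was deleted.
mmu-miR-17-5p: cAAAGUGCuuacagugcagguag
mmu-miR-20a-5p: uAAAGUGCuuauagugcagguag
mmu-miR-20b-5p: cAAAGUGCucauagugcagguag
mmu-miR-93-5p: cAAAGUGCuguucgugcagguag
mmu-miR-106a-5p: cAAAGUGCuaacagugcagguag
mmu-miR-106b-5p: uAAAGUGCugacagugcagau
The unedited site in Pkd2 lies on the forward strand of chr5:104503810-104503839 (GRCm38, GENCODE M21 transcript). Its capitals, 8 bases in all, are the bases that pair with the seed and the 1 adenine after them.
Pkd2 3′-UTR site: tataattttctGCACTTTAatttattttac
This was the 1 seed match in the annotated 3′-UTR of 2131 bases. Zfp605, the other gene that the results turn on, had 0 matches in a 3′-UTR of 692 bases.

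The authors deposited whole-number read counts per gene. Total counts in the 6 noncystic mice ran from 18800307 to 20928017. Levels are given as CPM, counts per 1000000 reads after scaling by edgeR's TMM factors, and 24642 genes with a mean log2CPM of at least -3 were tested by edgeR's quasi-likelihood test. Kidney markers were present in all 6 mice: Umod of the thick ascending limb stood at 781 to 1175 CPM and Nphs1 of the podocyte at 31.5 to 49.3 CPM. Havcr1, a marker of tubule injury, stood at 1.198 to 1.526 CPM. Xist exceeded 100 CPM in 1 of 3 Pkd2+/+ mice and 2 of 3 Pkd2Δ17/Δ17 mice, so that the sexes were not balanced between the genotypes. Mice 20 and 23 stood at opposite ends of the first principal component of the 6 mice and of a trend on transcript length described further on.

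Pkd2 mRNA was higher in every Pkd2Δ17/Δ17 mouse than in any Pkd2+/+ mouse. Its level was 217, 194 and 219 CPM in mice 19, 20 and 21, and 277, 286 and 271 CPM in mice 22, 23 and 24. The groups did not overlap, and the lowest Pkd2+/+ value came from mouse 20. The fold change was 1.32, or 0.40 on the log2 scale (standard error 0.078, 95% interval 0.24 to 0.57). Its unadjusted p of 8.21e-05 ranked 2 among 24642 genes, but the adjusted p was 0.771 from edgeR's quasi-likelihood test, so that Pkd2 did not pass the threshold of 0.05 over all genes. DESeq2's Wald test called it, with an adjusted p of 0.00151. In the cystic mice, which share no animal with this comparison, the log2 fold change was 0.53 (adjusted p = 0.00249 in edgeR's test). The difference between the 2 effects was 0.13 (standard error 0.11, adjusted p = 0.818), and the 95% interval in noncystic kidneys held the cystic value.

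**Figure D1:**
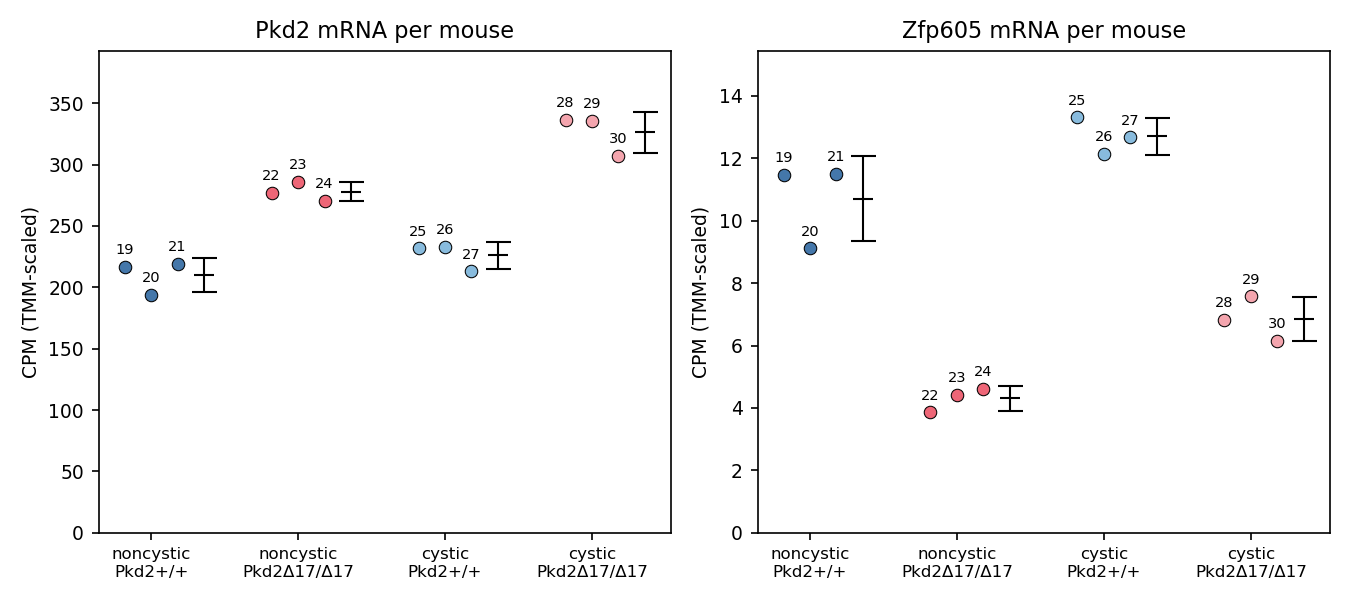
CPM of Pkd2 (left) and Zfp605 (right) in each of the 12 mice, with mouse numbers, by group on the horizontal axis. Bars beside the points give the mean and SD of 3 mice, and in both genes the Pkd2Δ17/Δ17 points lie apart from the Pkd2+/+ points of the same disease state, above them for Pkd2 and below them for Zfp605.

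Pkd1, the partner gene, did not show a difference beyond the spread between mice. It stood at 62.7, 50.4 and 65.7 CPM in the Pkd2+/+ mice and at 63.1, 77.5 and 68.8 CPM in the Pkd2Δ17/Δ17 mice. The groups overlapped, with mouse 20 lowest and mouse 23 highest. The log2 fold change was 0.23 (standard error 0.11, unadjusted p = 0.0517, adjusted p = 0.771 in edgeR's test), and 4.0% of the exons of Pkd1 overlap another gene. Without mice 20 and 23 it was 0.03 (unadjusted p = 0.747 in edgeR's test). Of the 7 polycystin family genes that passed the cutoff on low counts, out of 8 listed, Pkd2 was the 1 member with an unadjusted p under 0.05, a share to be read against 6.31% of all genes tested. Pkd2l2, a polycystin-2 paralogue, stood at 7.01 to 8.27 CPM in Pkd2+/+ mice and at 7.36 to 8.75 CPM in Pkd2Δ17/Δ17 mice.

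Zfp605, which encodes a zinc finger protein, was the 1 gene of 24642 (0.00406%) that passed the threshold, and it fell. Its level was 11.5, 9.12 and 11.5 CPM in mice 19, 20 and 21, and 3.87, 4.42 and 4.62 CPM in mice 22, 23 and 24. The groups were far apart: the highest Pkd2Δ17/Δ17 mouse lay below the lowest Pkd2+/+ mouse. The log2 fold change was -1.31 (standard error 0.15, 95% interval -1.64 to -0.99), which leaves 0.402 of the Pkd2+/+ level, and edgeR's test gave 0.00446 as the adjusted p. Leaving out mouse 19 gave 0.0523 as the adjusted p and leaving out mouse 22 gave 0.0567, at log2 fold changes of -1.26 and -1.26, with no gene called and 1256 and 2390 genes at an unadjusted p under 0.05. In cystic kidneys Zfp605 also fell, from 12.1 to 13.3 CPM with Pkd2+/+ to 6.16 to 7.58 CPM with Pkd2Δ17/Δ17 (log2 fold change -0.89, adjusted p = 0.00477). The test of the difference between the 2 effects gave an unadjusted p of 0.0588 (adjusted p = 0.619 in edgeR's test).

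Zfp605 lies on the chromosome that carries the edited gene. Its coordinates are chr5:110110092-110129794 on the forward strand of GRCm38, starting 5.60 Mb beyond the end of Pkd2 (chr5:104459450-104505819). Exons of Gm15484 overlap 3.8% of its exons, and that gene held 2 to 10 reads per mouse, so that the reads of Zfp605 are its own for the most part. The 5 nearest genes on either side with a mean log2CPM of at least 1 include the zinc finger gene Zfp932, the ubiquitin ligase gene Chfr and the Golgi gene Golga3. Of these 10 genes, 0 had an unadjusted p under 0.05 in edgeR's test. The lowest log2 fold changes among them were -0.47 for 5430403G16Rik (standard error 0.29) and -0.39 for 4930522L14Rik (standard error 0.20), 419 and 358 kb before Zfp605. Of these 2, 4930522L14Rik lay without overlap below the controls (3.31 to 4.62 against 2.89 to 3.08 CPM), as did 5.09% of all genes, and 5430403G16Rik overlapped. Without mouse 21, 2 of the 10 neighbours had an unadjusted p under 0.05, and without mouse 24, 1 did.

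The 10 corresponding neighbours of Pkd2, among them the matrix gene Sparcl1 and the osteopontin gene Spp1, also held 0 genes with an unadjusted p under 0.05. Their log2 fold changes ran from -0.23 (Gbp9, standard error 0.18) to 0.17 (ENSMUSG00000079065, standard error 0.13). Spp1, the nearest on the left at 18.4 kb, stood at 1370.5, 1408 and 1207 CPM in Pkd2+/+ mice and at 1444, 1217 and 1326 CPM in Pkd2Δ17/Δ17 mice, and the groups overlapped. Over all levels of expression, 3 of 26 genes (11.5%) within 1 Mb of Pkd2, 11 of 97 (11.3%) at 1 to 5 Mb and 6 of 129 (4.65%) at 5 to 10 Mb had an unadjusted p under 0.05, against 6.34% on the other chromosomes. The 3 within 1 Mb, Hsd17b13, Gm43545 and Gbp6, rested on few reads, with mean log2CPM of -1.21, -0.97 and -0.13. So did Gm36793, Gm29707, Gm43421, Gm9727 and Gm43081 at 1 to 5 Mb, with mean log2CPM of -2.86 to -1.46. None of the 14 nearer genes had an unadjusted p under 0.05 with the same sign in cystic kidneys, where 14.3% of all genes were under that level. Of the 6 farther ones, 3 did: Zfp605, the chemerin receptor gene Cmklr1 and Asphd2, named after their values were seen. Cmklr1 differed by -0.36 (standard error 0.15) in noncystic and by -0.39 in cystic kidneys, and Asphd2 by -0.84 (standard error 0.34) and -0.63.

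Beyond Zfp605 the noncystic kidneys of the 2 genotypes differed little, with narrow intervals in the well-expressed genes. Among the 13691 genes with a mean log2CPM of at least 1, the median absolute log2 fold change was 0.0993 and the median standard error 0.112. In 97.0% of them the 95% interval lay within 2-fold in either direction, and in 81.2% within 1.5-fold. Of these genes, 14 had a fold change of at least 2 in either direction. Below that level the comparison was not informative: the 10951 remaining genes had a median standard error of 0.881, and in 7.37% the interval lay within 2-fold. Over all genes tested, 804 genes (3.26%) were higher and 751 (3.05%) lower at an unadjusted p under 0.05, and these genes did not pass the adjustment apart from Zfp605. In cystic kidneys the same contrast called 549 genes (2.23%). In noncystic kidneys, 1402 genes (5.69%) lay without overlap above and 1254 (5.09%) below the Pkd2+/+ mice.

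**Figure D2:**
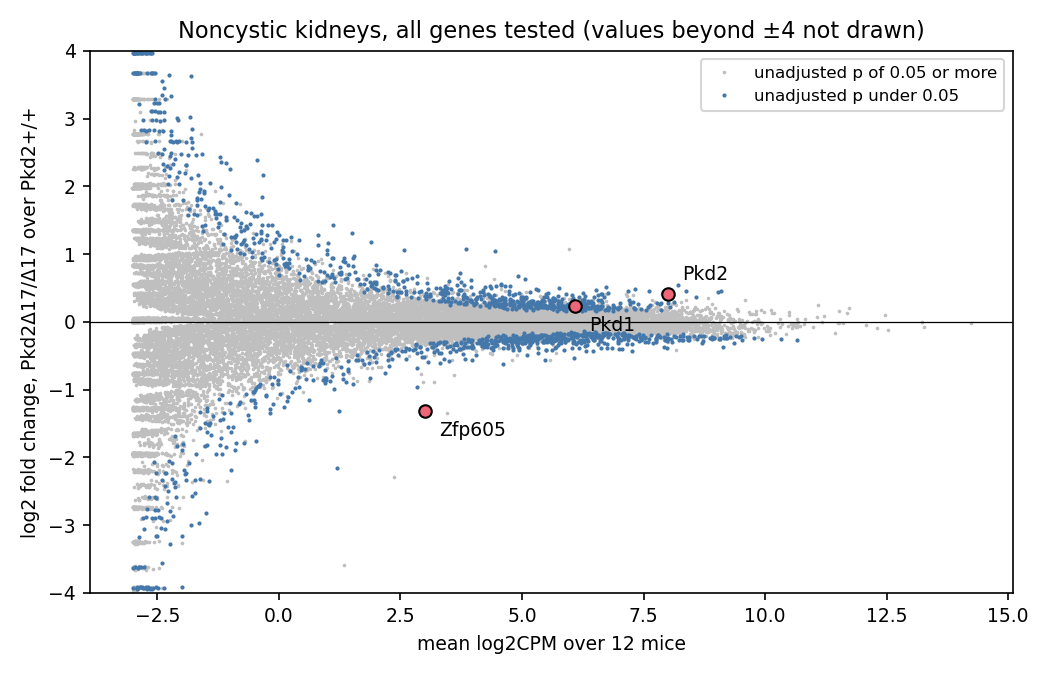
Log2 fold change of Pkd2Δ17/Δ17 over Pkd2+/+ noncystic kidneys (vertical axis) against mean log2CPM over the 12 mice (horizontal axis) for the genes tested, 1 point per gene, blue where the unadjusted p is under 0.05 (values beyond 4 in either direction are not drawn). The spread narrows with expression, and Zfp605 at -1.31 lies well below most genes of its level while Pkd2 at 0.40 lies at the upper edge.

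The genes with the smallest unadjusted p among those without overlap give the other candidates of this comparison, and apart from Zfp605 their adjusted p was 0.771 in edgeR's test. On the higher side, after Pkd2, these were Slc25a25, a calcium-regulated carrier of ATP and phosphate of the mitochondrial membrane, Erbb3, a receptor of neuregulins, Eps8l2, an actin regulator, and Ddhd1, a phospholipase. They were followed by the zinc finger gene Zbtb43, the collagen gene Col4a3, the calpain protease gene Capn5, Reep6, which shapes the endoplasmic reticulum, and Nos1ap, an adaptor of neuronal nitric oxide synthase. Slc25a25 stood at 109.7, 117 and 129 CPM in the Pkd2+/+ mice and at 176, 153 and 160.1 CPM in the Pkd2Δ17/Δ17 mice (log2 fold change 0.46, standard error 0.10). All 3 Pkd2Δ17/Δ17 mice were well above the others. Col4a3 stood at 283, 241 and 258 CPM against 318, 376 and 372 CPM (log2 fold change 0.44, standard error 0.11). In Col4a3 the groups were also apart, and mouse 22 was the nearest to the Pkd2+/+ range. The other 7 had log2 fold changes from 0.35 (Zbtb43) to 0.68 (Nos1ap), and 32.2% of the exons of Eps8l2 overlap another gene, so that its value is uncertain.

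On the lower side, after Zfp605, the ranked genes were Tgfbi, a matrix protein induced by TGF-β, Cygb, a globin of fibroblast-like cells, the caveolin genes Cav1 and Cav2, Sox18, a transcription factor of endothelium, Aplnr, the apelin receptor of endothelium, and Col8a2, a short-chain collagen, together with Id1, an inhibitor of helix-loop-helix factors, and Cacybp, a calcyclin-binding protein. Tgfbi stood at 37.5, 38.1 and 37.8 CPM in the Pkd2+/+ mice and at 28.7, 26.8 and 29.4 CPM in the Pkd2Δ17/Δ17 mice (log2 fold change -0.42, standard error 0.088). The Pkd2+/+ mice were nearly level with each other. Cav1 stood at 126, 139 and 119 CPM against 99.8, 103 and 92.1 CPM (log2 fold change -0.38, standard error 0.089). Cygb stood at 30.4, 32.8 and 27.8 CPM against 22.9, 19.7 and 22.1 CPM (log2 fold change -0.49, standard error 0.10). In Cav1 and Cygb each mouse of the deletion group was below each control. The other 6 had log2 fold changes from -0.61 (Col8a2) to -0.32 (Cav2). Tgfbi, Cav2, Sox18 and Col8a2 have 0 seed matches of the miR-17 family in the annotated 3′-UTR, as have Cav1, Id1, Aplnr and Cacybp, while Cygb has 1. On the higher side Ddhd1 has 3, Pkd2, Zbtb43 and Col4a3 have 1 each, and the other 6 have 0.

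The cystic mice gave a second measurement of the log2 fold changes of these 20 genes, since the noncystic and cystic fold changes share no mouse. The ranking itself was not independent of the cystic mice, because its p-values used a spread estimated from cystic and noncystic mice together. Genes with a low spread are thus favoured both in the ranking and in the cystic calls. In cystic kidneys 17 of the 20 had the same sign, 8 of 10 on the higher and 9 of 10 on the lower side, against 59.2% of the genes with a mean log2CPM of at least 1. Of the 20, 8 were called in cystic kidneys, against 3.78% of the genes with that mean level. Because of the shared spread, and because Pkd2 is the edited gene, that excess is not an independent test of the ranking. In the same direction were 7 of the 8: Pkd2 and Col4a3 rose there, and Zfp605, Cygb, Cav1, Sox18 and Col8a2 fell. Col8a2 had log2 fold changes of -0.61 in noncystic and -0.90 in cystic kidneys (adjusted p = 0.00324 in cystic kidneys in edgeR's test). Capn5 moved the other way: it stood at 23.9 to 28.1 CPM against 31.1 to 35.4 CPM in noncystic kidneys, and fell in cystic kidneys (log2 fold change -0.44, adjusted p = 0.0324). The difference between its 2 effects had an unadjusted p of 3.1e-05 and an adjusted p of 0.0565, and it did not pass the threshold. Ddhd1 and Aplnr were the other genes whose sign differed: Ddhd1 stood at 15.7, 13.8 and 19.3 CPM against 21.3, 25.7 and 23.9 CPM (log2 fold change 0.53) and at -0.15 in cystic kidneys, with an unadjusted p of 0.00184 for that difference in edgeR's test. Aplnr, Nos1ap, Cacybp, Eps8l2, Reep6 and Tgfbi had unadjusted p-values of 0.0113, 0.0201, 0.0208, 0.0221, 0.0222 and 0.0406 for it. None of these passed the adjustment.

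**Figure D3:**
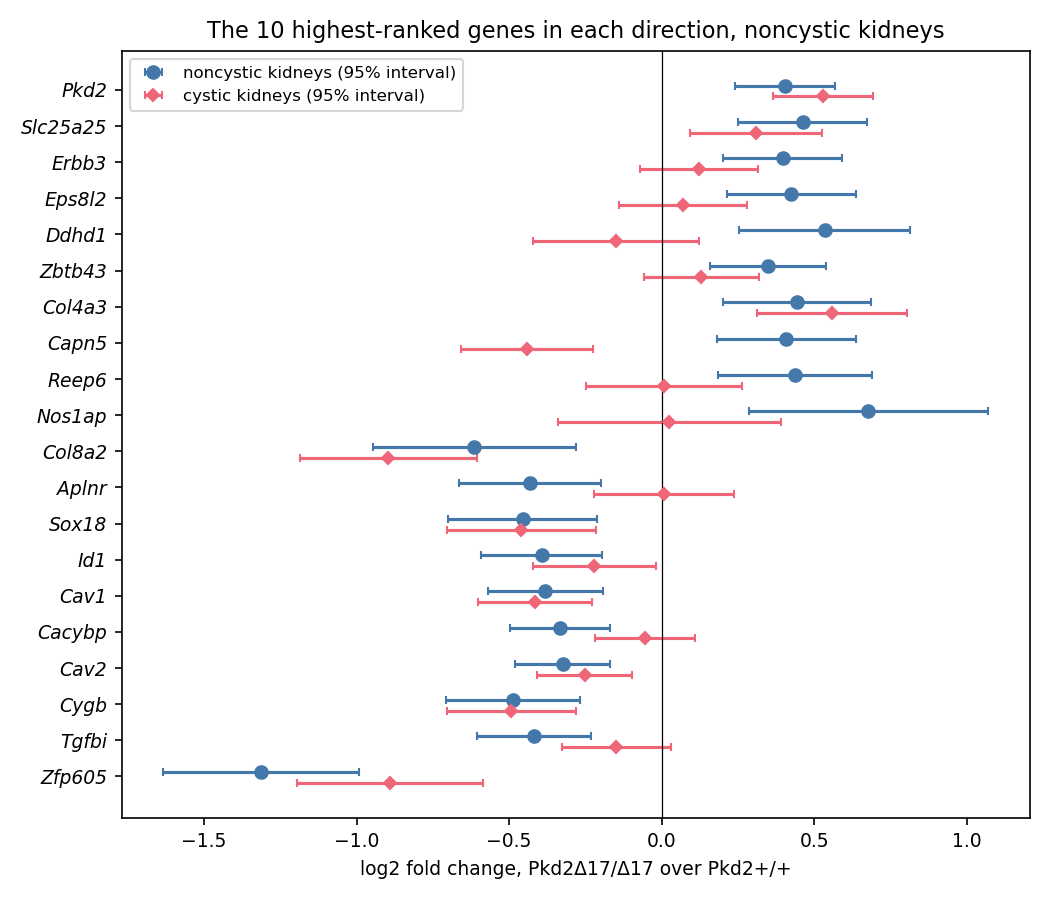
Log2 fold change of Pkd2Δ17/Δ17 over Pkd2+/+ (horizontal axis) in noncystic (blue circles) and cystic kidneys (red diamonds) for the 10 highest-ranked genes in each direction, with 95% intervals from the edgeR fit. The genes were chosen by their noncystic differences, tested with a spread estimated from noncystic and cystic mice together. In 17 of 20 genes the cystic value has the same sign, with Capn5 at 0.41 and -0.44 the clearest exception.

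Relatives of 3 ranked genes were looked up after those values were seen. Over all genes tested, 5.69% lay without overlap above and 5.09% below the Pkd2+/+ mice. Of the 6 collagen IV chains, Col4a3 and Col4a5, which join with Col4a4 in the network of the glomerular basement membrane, lay without overlap above the Pkd2+/+ mice, Col4a3 being the gene that prompted the list. Col4a5 stood at 181, 173 and 169 CPM against 213, 185 and 228 CPM (log2 fold change 0.26, standard error 0.11), and Col4a4 at a log2 fold change of 0.17 (standard error 0.089) with overlap. Col4a6 differed by 0.52 (standard error 0.21), with overlap and with mouse 24 far above the others at 35.5 CPM. The widely expressed chains Col4a1 and Col4a2 stood at -0.03 and 0.01. Of the 7 caveolins and cavins, which together coat the caveolae of the cell membrane, Cav1, Cav2, Cavin1 and Cavin3 lay without overlap below the controls, of which Cav1 and Cav2 prompted the list. Cavin1 differed by -0.25 (standard error 0.12), with mouse 20 far above the others at 183 CPM, and Cavin2 by 0.04 (standard error 0.11). Of the 4 Id genes, Id3 differed by -0.28 (standard error 0.071) without overlap, and Id2 and Id4 by -0.06 and -0.07 with overlap. None of these relatives passed the adjustment in edgeR's test (adjusted p = 0.771 for Col4a5, Col4a6, Cavin1, Cavin3 and Id3).

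The genes called in cystic kidneys had small median differences where no cysts formed. They were chosen by their cystic values, which draws their cystic medians away from 0 and not their noncystic ones. The gap between these medians is thus not a test of a difference between the effects. The 293 genes that rose in cystic Pkd2Δ17/Δ17 kidneys had a median log2 fold change of 0.63 there and of 0.06 in noncystic kidneys, where 191 lay above and 102 below 0. The 256 that fell had medians of -0.68 and -0.08, and 180 lay below and 76 above 0 in noncystic kidneys. Of the genes that fell, 29 were also lower at an unadjusted p under 0.05 in noncystic kidneys and 4 higher, together 12.9%. The share was 6.31% of all genes and 7.47% of those with a mean log2CPM of at least 1. Of the genes that rose, 16 were higher and 2 lower, together 6.14%. Both contrasts used the same estimate of the spread, so that these shares are not independent of the cystic calls. The difference between the cystic and the noncystic effect passed the threshold in 3 of 24642 genes (0.0122%). Conversely, of the 1023 genes (7.47%) with a mean log2CPM of at least 1 and an unadjusted p under 0.05 in noncystic kidneys, 76.9% had the same sign in cystic kidneys. Of all 13691 genes with that mean level, 59.2% did.

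Part of what moved with the genotype was ordered by transcript length, in noncystic and cystic kidneys alike. Genes whose longest transcript was under 1000 bases had a median log2 fold change of -0.16 in noncystic kidneys, and 84 of these 664 genes were lower and 8 higher at an unadjusted p under 0.05. Genes of 8000 bases or more had a median of 0.08, and 95 of these 776 genes were higher and 5 lower. The medians in cystic kidneys ran the same way, from -0.08 to 0.05. Mouse by mouse, the short genes deviated from the mean of the 6 noncystic mice by a median of 0.18 in mouse 20 and -0.18 in mouse 23, and the other 4 mice lay between -0.07 and 0.07. The trend is therefore largest in 1 mouse of each genotype, and its origin was not tested. Without these mice the medians for short and long genes were -0.04 and 0.02.

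**Figure D4:**
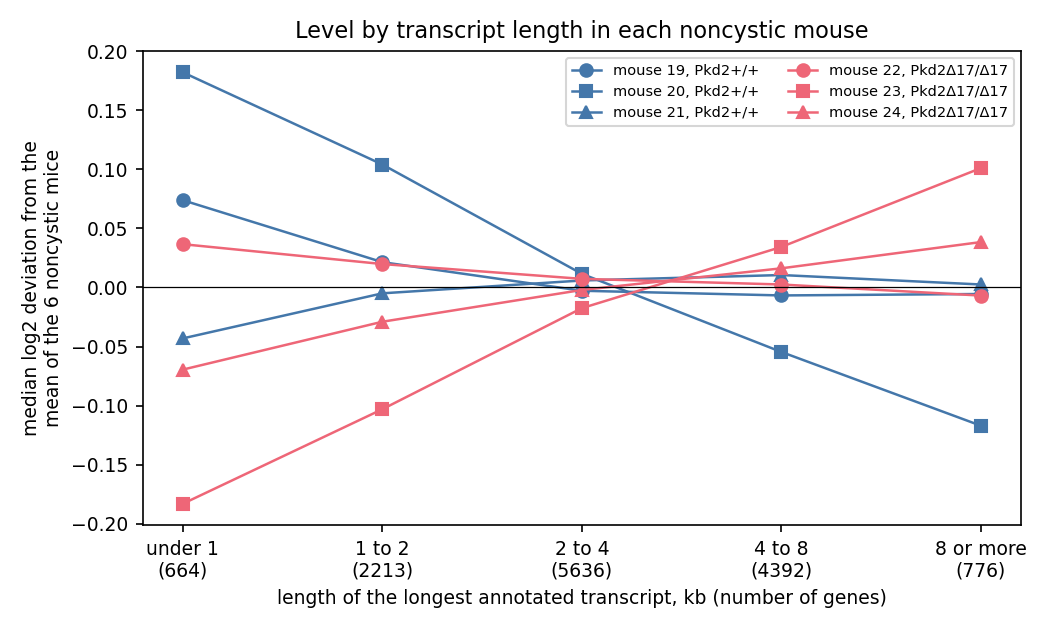
Median log2 deviation of each noncystic mouse from the mean of the 6 (vertical axis) for genes grouped by the length of their longest annotated transcript (horizontal axis, number of genes in parentheses). Mouse 20 (Pkd2+/+) falls from 0.18 to -0.12 and mouse 23 (Pkd2Δ17/Δ17) rises from -0.18 to 0.10, while the other 4 mice stay nearer to 0.

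The leading genes were set against this trend by fitting offsets for length and GC content in each mouse, an alternative added after the trend was seen. Pkd2, with a longest transcript of 5219 bases, then had a log2 fold change of 0.36 (standard error 0.068, unadjusted p = 6.74e-05 in edgeR's test), against a median of 0.04 for genes of its length class before the offsets. Zfp605, at 3158 bases, stayed at -1.31 (adjusted p = 0.00696). Pkd1, at 14164 bases, dropped from 0.23 to 0.10 (unadjusted p = 0.297 in edgeR's test). The ranked genes of 8000 bases or more also dropped, Ddhd1 (9820 bases) from 0.53 to 0.44 and Col4a3 (8554 bases) from 0.44 to 0.35. Without mice 20 and 23 these genes stood at 0.36 and 0.34 (unadjusted p = 0.0308 and 0.0277 in edgeR's test). Of the genes with a mean log2CPM of at least 1, 838 then had an unadjusted p under 0.05, and 73.0% of these had the same sign in cystic kidneys, against 58.0% of all 13691.

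Of 12882 genes with a mean log2CPM of at least 1 and an annotated 3′-UTR, 1865 (14.5%) held the 7-base match GCACTTT on the sense strand. Their median log2 fold change was 0.02, against -0.01 for the 11017 genes without it, and 1046 lay above 0, against 5134 of the 11017. At an unadjusted p under 0.05, 97 genes with a match were higher and 44 lower, together 7.56%. Without a match 351 were higher and 466 lower, together 7.42%. The median transcript lengths were 4804 and 3235 bases, so that the groups also differ on the length trend. Among 3′-UTRs of 500 to 2000 bases, the medians were 0.02 with and -0.01 without a match. There 29 genes were higher and 23 lower (8.15%) with a match, against 181 higher and 208 lower (7.53%) without. Of the 30 genes reported elsewhere as targets of the family, 16 lay above and 14 below 0 with a median of 0.01. At an unadjusted p under 0.05, 1 was higher and 1 lower, against 3.26% and 3.05% of all genes tested. The lower one was the cyclin gene Ccnd2 (-0.42, standard error 0.17). Without overlap, 5 of the 30 lay above and 1 below the Pkd2+/+ mice, against 5.69% and 5.09% of all genes tested. The 585 genes with the 8-base match GCACTTTA, as in Pkd2, had a median of 0.03.

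Markers of kidney cell types differed little. Of the 453 genes tested in the 28 gene lists, 0 passed the adjustment in edgeR's test and DESeq2's Wald test called Pkd2. At an unadjusted p under 0.05, 20 were higher and 14 lower (7.51%). The share was 6.31% of all genes and 7.47% of those with a mean log2CPM of at least 1. In bulk kidneys, fewer cells of a type and less RNA per cell cannot be told apart. Of 24 proximal tubule genes, 21 lay above 0 with a median log2 fold change of 0.16, beside 0.01 for all genes tested, and 1 was higher at an unadjusted p under 0.05. That gene was Slc5a12, a lactate transporter, at 371, 304 and 424 CPM in the Pkd2+/+ mice and 567, 544 and 495 CPM in the Pkd2Δ17/Δ17 mice, without overlap (log2 fold change 0.55, standard error 0.20). Thick ascending limb, podocyte, collecting duct and distal tubule genes had medians of 0.04, 0.05, -0.05 and -0.01. The summed CPM of all the lists overlapped between the genotypes, except for the polycystin family, where Pkd2 is the largest part.

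Fibroblast and mural cell genes lay on the lower side. Of 20, 16 were below 0 with a median of -0.17, and 4 (Dcn, Postn, Rgs5 and Fbln1) were lower at an unadjusted p under 0.05, against 3.05% of all genes. Dcn, which encodes the matrix proteoglycan decorin, stood at 102, 132 and 107 CPM in the Pkd2+/+ mice and at 97.8, 85.1 and 79.3 CPM in the Pkd2Δ17/Δ17 mice (log2 fold change -0.38, standard error 0.10). The summed CPM of this list was 3178 to 3615 in Pkd2+/+ and 2805 to 3307 in Pkd2Δ17/Δ17 mice, with overlap through mouse 22. Endothelial genes were below 0 in 13 of 14 cases with a median of -0.07, and none had an unadjusted p under 0.05. The part of these cell types in the lower values of Cav1, Cygb, Sox18 and Aplnr was not tested.

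Fat and blood in the dissected kidneys varied between single mice. All 12 fat tissue genes lay below 0 with a median of -0.36, and their summed CPM was 2054 in mouse 20 against 962 to 1285 in the other 5 mice. Without mouse 20 the median was 0.09. All 9 red blood cell genes that were tested, out of 10 listed, lay below 0 with a median of -0.25, and their summed CPM ran from 730 to 1100 in Pkd2+/+ and from 556 to 1192 in Pkd2Δ17/Δ17 mice, with mouse 23 highest. Without mouse 23 the median was -0.79. The defining adrenal genes Cyp11b1 and Cyp11b2 stood at 0 to 0.163 CPM in the 6 mice, and the 12 adrenal genes tested had a median of 1.05 at summed levels of 7.43 to 12.2 CPM.

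Genes of fatty acid oxidation, which PPARα controls in the proximal tubule, lay on the higher side. Of 24, 17 were above 0 with a median of 0.10, and 4 were higher at an unadjusted p under 0.05, against 3.26% of all genes. These were Ehhadh, the peroxisomal bifunctional enzyme, the thioesterase gene Acot2, the ω-hydroxylase gene Cyp4a10 and Angptl4, an inhibitor of lipoprotein lipase. Cyp4a10 stood at 183, 218 and 318 CPM in the Pkd2+/+ mice and at 249, 381 and 369.7 CPM in the Pkd2Δ17/Δ17 mice (log2 fold change 0.48, standard error 0.17). The groups overlapped, with mouse 21 above mouse 22. Nuclear-encoded subunits of the respiratory chain lay below 0 in 24 of 28 cases with a median of -0.10, and the median was -0.03 with offsets for length and GC content.

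Of 26 genes other than the polycystins that are mutated in cystic kidney or liver disease, 19 lay above 0 with a median of 0.07. At an unadjusted p under 0.05, 2 were higher and 2 lower, together 4 of 26 against 6.31% of all genes. Tsc1 (0.30, standard error 0.093), a repressor of mTOR signalling, was among those higher, and Alg9 (-0.27, standard error 0.087) and Dnajb11 (-0.18, standard error 0.072), which serve protein glycosylation and folding in the endoplasmic reticulum, were lower. Of the 22 partners of polycystin-2 and calcium handling genes, the IP3 receptor gene Itpr1 was higher (0.27, standard error 0.11) and the calcium channel gene Orai1 lower (-0.27, standard error 0.11) at that level. Of the 24 cell cycle and 17 tubule injury genes, 0 had an unadjusted p under 0.05 and 0 an adjusted p under 0.05 in edgeR's test, with medians of -0.06 and 0.09. Among 19 genes of cAMP signalling and Creb, 8 lay above and 11 below 0 with a median of -0.03. The adenylyl cyclase gene Adcy6 (0.28, standard error 0.10) and Sik1 (0.22, standard error 0.099) were higher at an unadjusted p under 0.05. At that level the protein kinase A subunit gene Prkaca was lower (-0.27, standard error 0.091). Among 19 Myc and Yap genes, 6 lay above and 13 below 0 with a median of -0.04. Of these genes Amotl2 alone was under that level, and it was higher, at 169, 158 and 158 CPM against 186, 202 and 187 CPM (0.25, standard error 0.073). The counts in these lists stand beside 3.26% of all genes higher and 3.05% lower at an unadjusted p under 0.05.

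The other lists were near 0 or rested on few reads. The 14 macrophage and MHC class II genes had a median of -0.07. Among them the growth factor receptor gene Csf1r was higher at an unadjusted p under 0.05 (0.18), as were 3.26% of all genes. The 16 lymphocyte genes had a median of 0.42 at summed levels of 26.3 to 41.0 CPM, with 3 genes higher and 2 lower at that level. The 7 muscle genes had a median of -0.18 at 10.8 to 14.5 CPM, with 1 higher, and both counts stand beside 6.31% of all genes. The 13 mitochondrially encoded genes had a median of -0.13, the 17 immediate early genes -0.06 and the 10 sex-biased kidney genes 0.00, each with 0 genes at an unadjusted p under 0.05 or called in edgeR's test. Of 18 circadian clock genes, with a median of 0.04, Cry2 and Per3 were higher at an unadjusted p under 0.05, against 3.26% of all genes. The list of Y-linked genes and Xist had 5 genes tested and a median of -0.77, beside the unequal numbers of mice with high Xist.

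**Figure D5:**
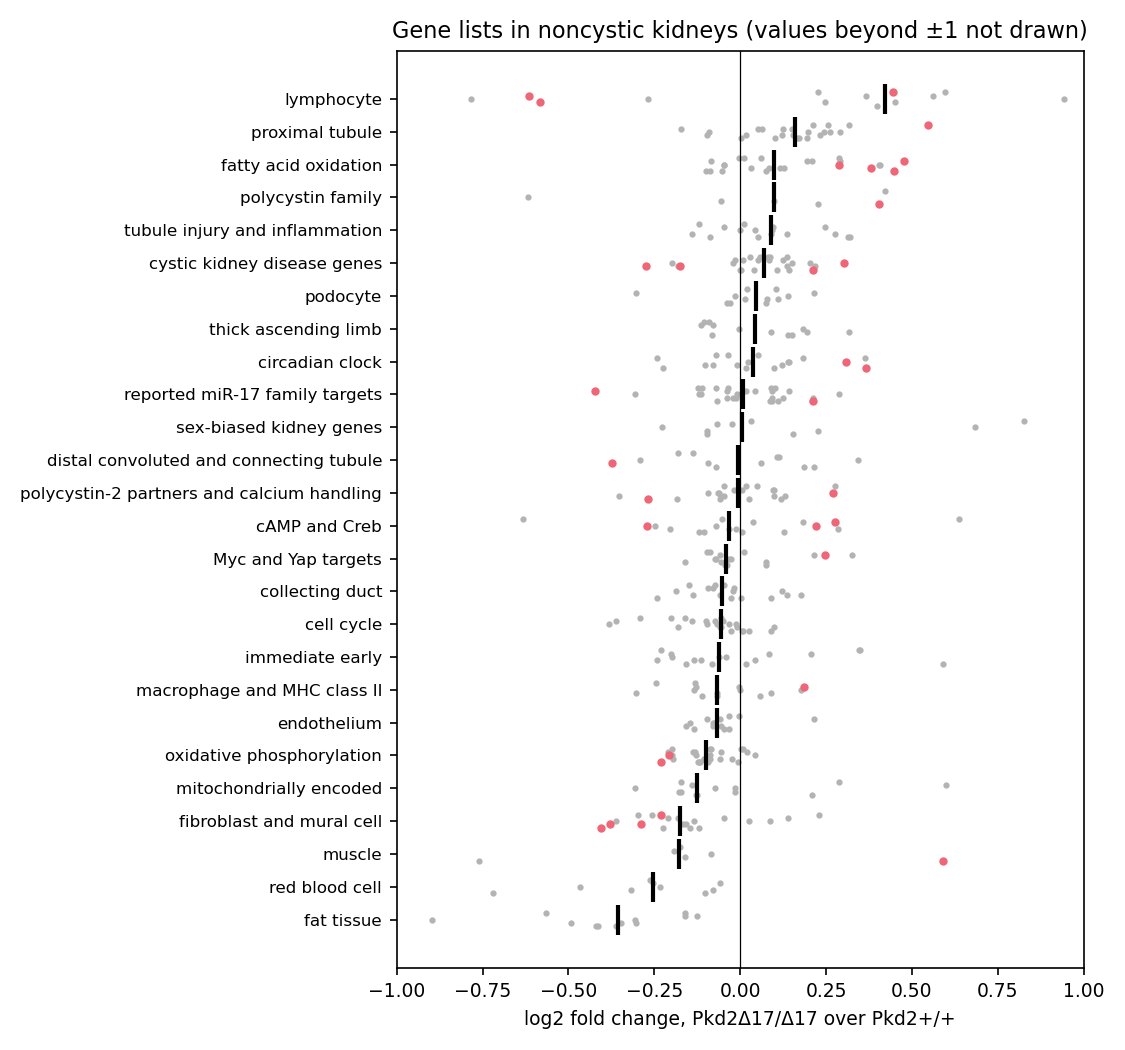
Log2 fold change of Pkd2Δ17/Δ17 over Pkd2+/+ noncystic kidneys (horizontal axis) for the members of 26 of the gene lists, 1 row per list ordered by its median (black tick), with red points where the unadjusted p is under 0.05 (values beyond 1 in either direction are not drawn). The medians run from -0.36 for fat tissue to 0.42 for lymphocyte genes, most of which have low counts, and no point passes the adjustment.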

How the data were processed

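Whole kidneys of 12 mice were sequenced, and the 6 noncystic mice were compared by genotype as labelled. Per the submitters' processing notes, reads were trimmed with Trim Galore 0.6.3 and aligned to GRCm38 with STAR 2.5.3a. The authors deposited the raw count of reads per gene for 54532 genes, with no normalization. The strand setting of the counting is not given in the sources used here, so genes that overlap another are uncertain. Of the identifiers, 99.93% were found in GENCODE M21, and 0 columns were left without a sample.

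Counts were fitted in R 4.3.3 with edgeR 4.0.16 (quasi-likelihood test, TMM factors, 1 mean per group over all 12 mice, mean log2CPM of at least -3, Benjamini-Hochberg threshold 0.05). Standard errors were taken from the F statistic. Alternatives used limma 3.58.1, DESeq2 1.42.0, other scalings and filters, Xist as a covariate and fewer mice. Offsets for length and GC content and the fit without mice 20 and 23 were chosen after seeing the data. Each sample is 1 mouse. The contrast, lists and named genes (Pkd2, Pkd1, called genes, the 10 smallest unadjusted p-values in each direction without overlap at a mean log2CPM of at least 1, neighbours, list members) were chosen with earlier results of these data known. Seed matches were counted in the longest annotated protein-coding transcript. Some members of the gene lists are not reported here.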

Additional observations from a re-analysis of the deposited data

Results flagged for a closer look

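The effect of the deletion differed between cystic and noncystic kidneys, by the interaction term of edgeR's quasi-likelihood test, in 3 genes of 24642. Wfdc15b, a protease inhibitor gene, stood at 149 to 179 CPM in noncystic Pkd2+/+ and at 137 to 174 CPM in noncystic Pkd2Δ17/Δ17 mice, and the log2 fold change of the deletion was larger by 0.96 in cystic kidneys (standard error 0.14, adjusted p = 0.0359). Ppp1r1a, a protein phosphatase inhibitor gene, stood at 368 to 382 and 300.1 to 376 CPM, with a difference of 0.92 (standard error 0.13, adjusted p = 0.0359). H2-Ab1, an MHC class II gene, stood at 43.91 to 51.33 and 46.05 to 47.68 CPM, with a difference of -1.46 (standard error 0.22, adjusted p = 0.0359). In noncystic kidneys their own log2 fold changes were -0.13, -0.11 and -0.0026, none past the threshold, and in cystic kidneys the first 2 rose and H2-Ab1 fell. The count of 3 depends on single mice and on the test, as given in the next part.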

How the results depend on the processing

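With 3 mice per genotype and this depth, genes with a mean log2CPM under 1 had intervals too wide to show a 2-fold change in most cases. The count of 1 gene called in noncystic kidneys was 3 with DESeq2's Wald test, 124 with no cutoff on low counts and 2 with the 6 noncystic mice only, and 0 to 2 when each noncystic mouse was left out. Zfp605 was called in each of these fits except without mouse 19 or 22, where 0 genes were called. Pkd2 passed with DESeq2's Wald test (log2 fold change 0.40) and with no cutoff (0.405), where the prior degrees of freedom became infinite so that the spread of a gene's own mice did not enter. Pkd2 ran from 0.33 to 0.43 and Pkd1 from 0.03 to 0.30 over 18 alternatives, both without a change of sign. Of 25 gene results, 434 of 450 alternative values kept direction and side of the threshold, 14 newly passed it, 2 lost it and 0 reversed.

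The 3 genes with an interaction became 8 with library totals, 134 with DESeq2's Wald test, 9 with limma-trend, 20 with a robust prior, 566 with no cutoff, 0 with filterByExpr, 12 with at least 10 counts in every mouse, 20 with Xist as a covariate, 18 with length and GC offsets and 1 without mice 20 and 23. It ran from 0 (without mouse 19, 23, 24, 27 or 29) to 61 (without mouse 25) when each of the 12 mice was left out, and the cause was not tested. With filterByExpr, 1217 genes had an unadjusted p under 0.05 for the deletion in noncystic kidneys. Of 28 list medians, 27 of 504 alternative values moved by more than the spread between mice. Unadjusted counts for the deletion fell from 1555 to 597 without mice 20 and 23 and to 832 and 769 without either one. No paired analysis was possible because the sample labels used here give no litter or breeding pair.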
